A study of Mus musculus with 10 samples.

Results

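A set of 50 genes of mitosis, the kinetochore and the protection of sister chromatid cohesion was followed in 10 mouse lung tumors, 5 labeled KP and 5 labeled KPG1. The genes were given as a list of symbols, and all 50 were found by exact symbol among the 39017 genes of the count table and passed the filter on low counts, which left 16216 genes in the test. KP mice are a model of lung adenocarcinoma in which Cre recombinase switches on engineered tumor alleles, which both groups share and which are not reported here. KPG1 mice carry in addition the homozygous floxed allele of Slc2a1, which encodes Glut1, a facilitative glucose transporter. The labels of the KP tumors call the same locus heterozygous floxed in one field and wild type in another, so KP means here the controls of the labels. In all mice Cre came from an adenovirus with the SPC promoter, instilled into the trachea, which limits recombination to cells expressing surfactant protein C, mainly alveolar type 2 cells. All mice were C57BL/6 males and their tumors were taken 18 weeks and 6 days after the virus. Tumors were cut out of the lung and dissociated, and RNA came from the cells left after magnetic beads against CD45 had removed leukocytes, so endothelial cells and fibroblasts that never met Cre remain in each sample. The labels do not say whether the 5 tumors of a group came from 5 mice, so p-values measure the spread between these tumors.

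In mitosis, sister chromatids are held together by the cohesin ring until all kinetochores are attached to the spindle. Shugoshins guard cohesin at centromeres by bringing the phosphatase PP2A with its B56 subunit, unattached kinetochores signal through the Bub and Mad proteins and hold back the ubiquitin ligase APC/C, and separase cuts cohesin once its inhibitor securin has been destroyed. Most genes of this machinery are transcribed mainly in cycling cells, late in the cell cycle, which is why their RNA is widely read as a measure of proliferation in tumors. In a bulk sample such as these, fewer dividing cells and less RNA per dividing cell cannot be told apart.

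The libraries held 32427029 to 49534284 counts, and KP 5 was the deepest. KP 5 was singled out beforehand, from earlier results of these data, as a control tumor low in proliferation genes, so its low values below are a description. Expression is given as CPM, the count divided by the library size after TMM scaling. Over the 10 libraries the counts of single members ran from 20 for Cdc25c to 7859 for Mki67. Slc2a1 lay at 78.8, 127, 123, 109 and 71.7 CPM in KP 1 to KP 5 and at 47.3, 66.8, 40.8, 51.3 and 44.3 CPM in KPG1 1 to KPG1 5. The groups did not overlap. Its log2 fold change, KPG1 minus KP, was -1.01 ± 0.20 (SE, n = 5 per group), with a limma adjusted p of 0.0675 over all genes and an exact two-sided permutation p of 0.00794, the smallest this design allows. Alveolar type 2 markers were abundant, with Sftpc at 5370 to 40200 CPM, and the leukocyte marker Ptprc was at 5.21 to 11 CPM. Ptprc is 1 of 15 leukocyte markers read, whose sum was 138 to 279 CPM in KP and 151 to 345 CPM in KPG1. Some leukocyte RNA therefore remained. The summed level of the 11 alveolar type 2 markers ran from 19600 CPM in KP 1 to 67400 CPM in KP 5 among the controls and from 53400 to 99400 CPM in KPG1. All 11 were fitted higher in KPG1, beside 52.7% of all genes. An unadjusted p under 0.05 was reached by 4 of them, beside 5.26% of all genes, and an adjusted p under 0.05 by none (limma). The part of this difference in the results below was not tested.

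Of the 50 genes, 1 passed the test between genotypes. Sgol2, which encodes shugoshin 2, rose in KPG1, and no member fell (limma-voom with Benjamini-Hochberg adjustment over all genes, threshold 0.05). This call was lost with the replicate number as a block (log2 fold change 0.83, adjusted p 0.176) and with the sample number (taken from the titles) as a covariate (0.72, adjusted p 0.256). Over all genes tested, 0.0617% were called higher and 0.111% lower by the same rule. At an unadjusted p under 0.05, 12 members were higher in KPG1 and 0 were lower, beside 5.26% and 6.31% of all genes. The fitted value was higher in KPG1 for 47 of the 50 members, beside 52.7% of all genes, and the median log2 fold change of the members was 0.78, beside 0.02 for all genes. The median was 0.31 without KP 5, 0.49 with a weight per library and 1.22 with the sample number as a covariate. The sample numbers ran from 6 to 16 in KP and from 1 to 10 in KPG1, so this covariate runs partly with genotype. KP 5, at number 6, was the only control inside the KPG1 range. Leaving out KP 5 kept the number of members with an unadjusted p under 0.05 at 12, beside 8.51% of all genes in that fit, and 11 of the 12 were the same genes. Leaving out KP 1 moved the number to 22, beside 914 of 16357 genes higher over all genes in that fit. Leaving out KPG1 3 moved it to 5, beside 591 of 16444, and the sample number as a covariate moved it to 40, beside 749 of 16216.

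**Figure D1:**
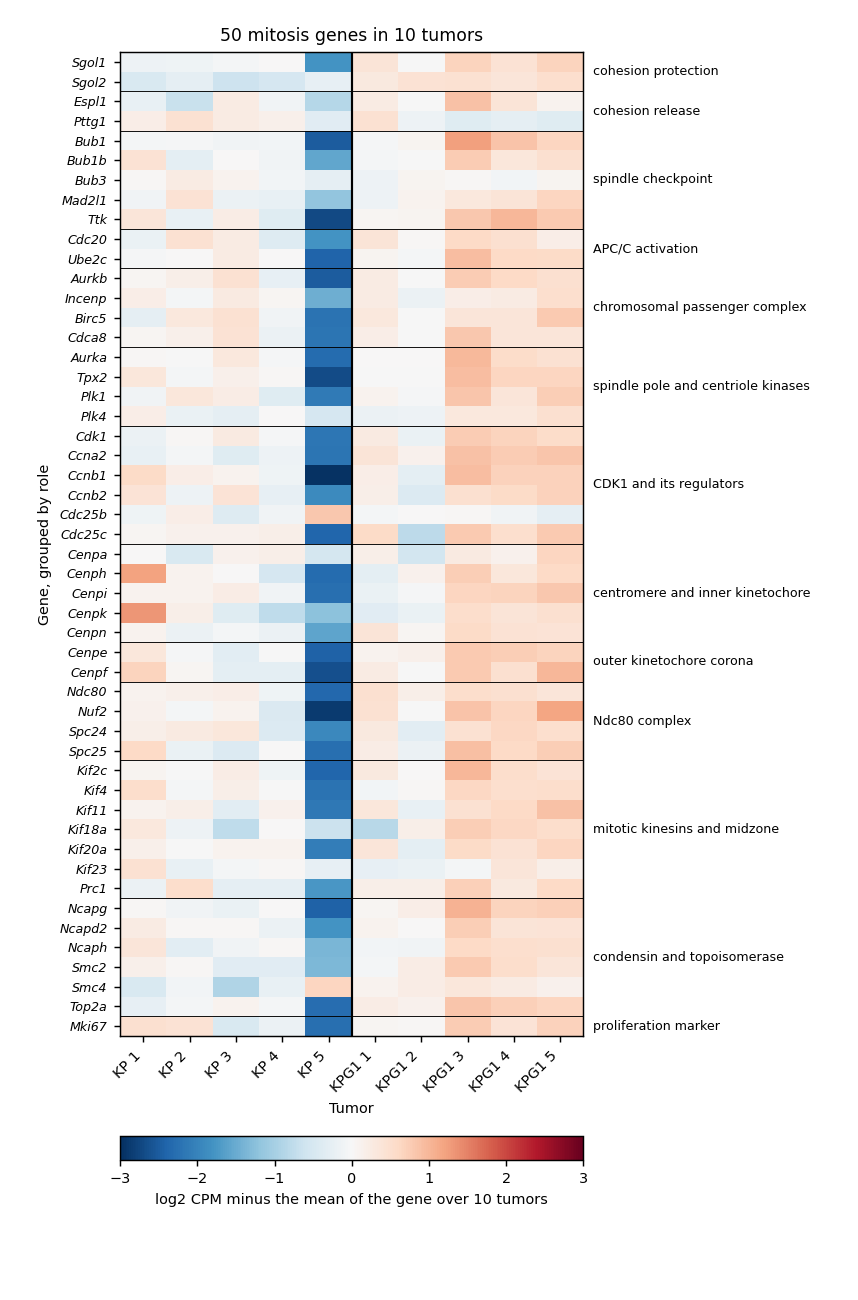
Expression of the 50 genes (rows, grouped by role) in 10 tumors (columns), as log2 CPM minus the mean of each gene over the 10 tumors, with blue below and red above that mean. KP 5 is blue in nearly every row, with Cdc25b and Smc4 as red rows, and the deepest red lies mostly in KPG1 3, KPG1 4 and KPG1 5.

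The 10 tumors did not fall into 2 levels by genotype. The mean log2 CPM of the 50 genes was 3.98, 3.85, 3.82, 3.70 and 2.09 in KP 1 to KP 5 and 3.95, 3.80, 4.46, 4.30 and 4.37 in KPG1 1 to KPG1 5. KP 1 to KP 4 lay within a narrow range, KPG1 1 and KPG1 2 lay inside that range, and KPG1 3, KPG1 4 and KPG1 5 lay above it. The mean of the KP tumors was 3.49 ± 0.79 (SD, n = 5), or 3.84 ± 0.12 (SD, n = 4) without KP 5, and that of the KPG1 tumors was 4.17 ± 0.29 (SD, n = 5). The pattern within KPG1 ran through most members: KPG1 1 and KPG1 2 were the 2 lowest KPG1 tumors for 39 of the 50, beside 14.6% of all genes, and KPG1 3 was the highest for 31, beside 21.3%. These tumors were picked after the means of the same members were seen, so the counts are a description. With KP 5 included, the spread was wider in KP than in KPG1 for 46 of the 50 genes, a share that was not counted over all genes. Without KP 5 the SD of the member mean was smaller in KP (0.12) than in KPG1 (0.29). The SE of a member's fold change was at the median 1.79 times as large with KP 5 as without it.

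Sgol2 had the smallest spread of the 50 genes in either group, with an SD of log2 CPM of 0.16 in KP and 0.08 in KPG1 (n = 5 each). Shugoshin 2 is best known as the guardian of centromeric cohesin in meiosis and is also found at mitotic centromeres. The gene (named Sgo2a in newer annotation, ENSMUSG00000026039, chr1:57995971-58025899, plus strand, mm10) was at 15.5, 17.9, 13.9, 15.1 and 18.1 CPM in KP 1 to KP 5 and at 26.3, 29.0, 29.3, 27.7 and 30.2 CPM in KPG1 1 to KPG1 5. Every KPG1 tumor was above every KP tumor, KP 5 included. Its log2 fold change was 0.83 ± 0.12 (SE, n = 5 per group), a 1.78-fold higher level in KPG1, with a limma adjusted p of 0.0304 and an exact two-sided permutation p of 0.00794. The permutation test was planned for Slc2a1 only, and every gene without overlap between the groups gets this p, so it adds no support here. Without KP 5 the log2 fold change of Sgol2 was 0.87 ± 0.12 with an adjusted p of 0.0131, in a fit that called 0.431% of all genes higher. The adjusted p was above 0.05 without KP 1 (0.0682), without KP 3 (0.0654), without KP 4 (0.0850) and without KPG1 1 to KPG1 5 in turn (0.0587, 0.0685, 0.0931, 0.0731 and 0.0707), while the log2 fold change stayed between 0.78 and 0.87.

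In 4 control tumors Sgol2 sat at the level of the other 49 genes, and in KP 5 it was above them. Sgol2 minus the mean of the other 49, on the log2 CPM scale, was -0.03, 0.32, -0.02 and 0.22 in KP 1 to KP 4 and 2.13 in KP 5. In KPG1 1 to KPG1 5 the difference was 0.79, 1.09, 0.42, 0.50 and 0.57. Each KPG1 tumor lay above each of KP 1 to KP 4 in this difference, and KP 5 lay above every KPG1 tumor. Over all 5 KP tumors it was 0.53 ± 0.91 (SD). Sgol2 was picked as the member that passed the test in these data. The difference is therefore a description and adds no support. Annotation limits this gene: 2455 of its exon bases, 35.0% of them, overlap Kctd18 on the opposite strand, and the strand setting used when reads were counted is not given in the sources used here. Kctd18 was at 24.2, 19.3, 16.8, 16 and 18.1 CPM in KP 1 to KP 5 and at 22.0, 19.0, 18.6, 20 and 24.5 CPM in KPG1 1 to KPG1 5, which overlap, with a log2 fold change of 0.15 ± 0.15 (SE) and a limma adjusted p of 0.728.

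**Figure D2:**
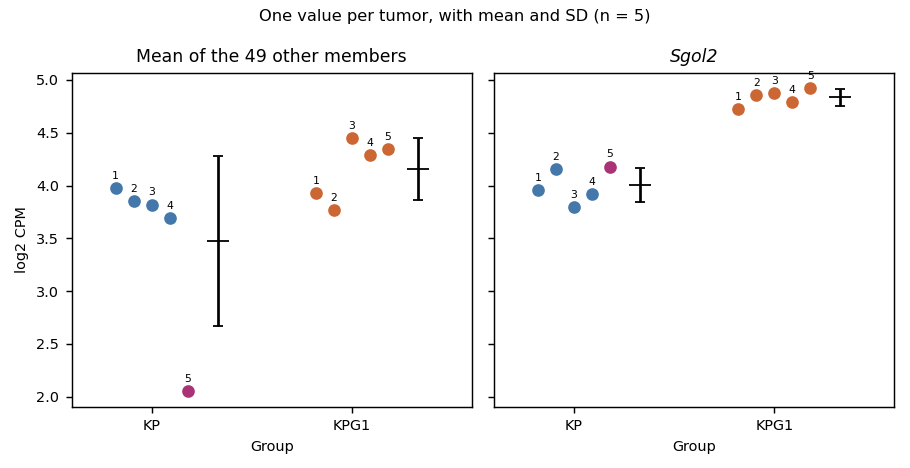
Left, the mean log2 CPM of the 49 members other than Sgol2, and right, the log2 CPM of Sgol2, with 1 numbered point per tumor (KP 1 to 4 blue, KP 5 purple, KPG1 orange) and the mean ± SD (n = 5) as black bars. KP 5 is far below the other tumors at left, at 2.05, and is the highest KP tumor at right, at 4.18.

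Sgol1, the shugoshin that protects cohesin in mitosis, had the pattern of the rest. It was at 4.58, 4.68, 4.86, 5.17 and 1.42 CPM in KP 1 to KP 5 and at 6.64, 5.02, 8.04, 6.86 and 8.12 CPM in KPG1 1 to KPG1 5. The groups overlapped through KPG1 2, and KP 5 was 3.30-fold below the mean of KP 1 to KP 4. The log2 fold change was 0.87 ± 0.34 (SE) with an unadjusted p of 0.0241 and a limma adjusted p of 0.357, and 0.49 ± 0.19 without KP 5. The genes that release cohesion went apart in their fitted direction. Espl1, which encodes separase, was at 11.8, 8.67, 16.1, 12.8 and 7.60 CPM in KP and at 16.1, 13.6, 25.2, 18.0 and 14.9 CPM in KPG1, with a log2 fold change of 0.65 ± 0.24 (SE, adjusted p 0.330). The groups overlapped in KP 3, and the unadjusted p was 0.0187 with KP 5 and 0.0518 without it. Pttg1, which encodes securin, had the lowest log2 fold change of the members, -0.27 ± 0.20 (SE, adjusted p 0.640), with 17.3, 20.8, 17.8, 16.6 and 11.9 CPM in KP and 20.6, 13.4, 11.6, 12.4 and 11.6 CPM in KPG1. KPG1 1 was close to the highest KP tumor, and the other KPG1 tumors were close to KP 5, the lowest.

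Among the 5 genes of the spindle checkpoint, the kinase gene Bub1 had an unadjusted p under 0.05, with a log2 fold change of 1.14 ± 0.46 (SE, adjusted p 0.371). Bub1b, whose product BubR1 binds Cdc20 in the checkpoint complex, was at 37.1, 22.5, 27.9, 25.7 and 9.26 CPM in KP and at 26.6, 27.2, 47.2, 34.8 and 38.4 CPM in KPG1, and KP 1 was above 3 of the KPG1 tumors. Its log2 fold change was 0.62 ± 0.32 (SE) with a limma adjusted p of 0.494. Ttk, which encodes the checkpoint kinase Mps1, was fitted at 1.12 ± 0.51 and Mad2l1 at 0.54 ± 0.26, neither with an unadjusted p under 0.05. Bub3, which also works outside mitosis, was fitted at -0.01 ± 0.12 and differed little between tumors, at 49.1 to 70.7 CPM in KP and 53.5 to 63.4 CPM in KPG1. Cdc20, the activator that the checkpoint holds back, and Ube2c, the ubiquitin-conjugating enzyme of the APC/C, were fitted at 0.71 ± 0.34 and 0.89 ± 0.44, and neither had an unadjusted p under 0.05.

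None of the 4 genes of the chromosomal passenger complex, which corrects faulty attachments, reached an unadjusted p under 0.05, and their median log2 fold change was 0.75 with and 0.25 without KP 5. Aurkb, the kinase of the complex, was at 7.38, 7.95, 9.68, 5.97 and 1.22 CPM in KP and at 8.37, 6.95, 11.9, 10.7 and 9.84 CPM in KPG1. KP 1 to KP 4 and KPG1 overlapped, and the log2 fold change was 0.86 ± 0.46 (SE, adjusted p 0.506) with KP 5 and 0.29 ± 0.21 without it. Of the 4 genes of spindle pole and centriole kinases and their activator, 0 had an unadjusted p under 0.05. Plk1, a kinase that acts from mitotic entry to cytokinesis, was at 7.91, 10.6, 9.90, 6.52 and 1.91 CPM in KP and at 9.16, 8.17, 15.1, 11 and 14.2 CPM in KPG1, with a log2 fold change of 0.85 ± 0.41 (SE, adjusted p 0.455) and overlap between the groups. Plk4, which starts centriole duplication, was fitted at 0.31 ± 0.19, and KP 5 lay only 1.35-fold below the mean of the other KP tumors for it.

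Of Cdk1 and its 5 regulators in the list, Ccna2 stood out. Cyclin A2 drives S phase and the entry into mitosis, and its gene had the second smallest p of the 50. Ccna2 was at 20.4, 23.1, 18.6, 21.6 and 5.14 CPM in KP and at 31.3, 26.2, 43.6, 40.6 and 42.3 CPM in KPG1. The groups did not overlap, with or without KP 5. The log2 fold change was 1.22 ± 0.36 (SE, limma adjusted p 0.238) and without KP 5 it was 0.78 ± 0.17 (adjusted p 0.0547). Cdk1 was at 22.2, 25.6, 30.5, 24.5 and 5.51 CPM in KP and at 30.3, 21.9, 42.8, 40.0 and 36.8 CPM in KPG1, with overlap through KPG1 1 and KPG1 2 and a log2 fold change of 0.86 ± 0.41 (SE, adjusted p 0.444). Ccnb1, the partner of Cdk1 at mitotic entry, was at 17.4, 13.3, 12.5, 10.7 and 1.45 CPM in KP and at 13.4, 9.49, 22.3, 18.9 and 18.8 CPM in KPG1. It had the widest spread in KP and the lowest relative level in KP 5 of all members, 8.89-fold below the mean of the other KP tumors, and its log2 fold change went from 0.94 ± 0.56 (adjusted p 0.548) to 0.25 ± 0.26 without that tumor. Near-identical copies limit it, since Ccnb1-ps shares 1287 bases at 99.2% identity and Gm12856 shares 1294 bases at 98.1%, and both are rows of the table with at most 62 and 74 counts in a library.

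At the kinetochore, the members ran from the histone variant at its base to the complex that holds microtubules. Cenpa, the histone H3 variant of centromeres, was at 13.2, 9.55, 14.4, 14.9 and 9.05 CPM in KP and at 14.9, 8.89, 15.9, 14.2 and 20.5 CPM in KPG1. The groups overlapped over most of their range and KP 5 was only just below KP 2, with a log2 fold change of 0.27 ± 0.24 (SE, adjusted p 0.701). Of the inner kinetochore genes, Cenpn was at 4.32, 3.55, 3.86, 3.56 and 1.31 CPM in KP and at 5.24, 4.21, 5.96, 5.46 and 5.39 CPM in KPG1, with KPG1 2 alone inside the KP range and a log2 fold change of 0.77 ± 0.30 (SE, adjusted p 0.361). Nuf2, a subunit of the Ndc80 complex, had the highest log2 fold change of the members, 1.30 ± 0.50 (SE, adjusted p 0.359), and 0.68 ± 0.25 without KP 5. It was at 8.13, 7.07, 8.01, 5.43 and 0.965 CPM in KP and at 10.1, 7.37, 13.4, 11.7 and 16.8 CPM in KPG1, where KPG1 2 lay among the KP tumors. The other subunits Ndc80, Spc24 and Spc25 were fitted at 0.84 ± 0.42, 0.67 ± 0.42 and 0.93 ± 0.45, each with an unadjusted p above 0.05, and the corona proteins Cenpe and Cenpf at 1.01 ± 0.43 and 1.03 ± 0.49, of which Cenpe had an unadjusted p under 0.05 (0.0373).

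Of the 7 genes of mitotic kinesins and the spindle midzone, Prc1, which bundles antiparallel microtubules, had an unadjusted p under 0.05, with a log2 fold change of 0.80 ± 0.33 (SE, adjusted p 0.383). Of the 6 genes that shape chromosomes, 3 were under 0.05 with KP 5, beside 5.26% of all genes, and 4 without it, beside 8.51%, and a difference from the other groups was not tested. Smc2, the condensin ATPase, was at 31.2, 28.6, 22.1, 22.3 and 11 CPM in KP and at 26.8, 32.8, 48.9, 40.4 and 36.2 CPM in KPG1, overlapping through KPG1 1, with a log2 fold change of 0.75 ± 0.27 (SE, adjusted p 0.316). Ncapg, a condensin I subunit, was at 10.1, 9.11, 8.61, 10 and 1.79 CPM in KP and at 10.3, 11.4, 20.3, 15.8 and 16.2 CPM in KPG1, and Top2a, the topoisomerase that untangles sister chromatids, was at 43.1, 49.6, 54.9, 49.1 and 10.4 CPM in KP and at 60.2, 55.6, 90.4, 83.8 and 80.5 CPM in KPG1. Neither gene overlapped between the groups, with KPG1 1 and KPG1 2 close above the highest KP tumor. Their log2 fold changes were 1.10 ± 0.43 and 1.03 ± 0.40 (SE), both with a limma adjusted p of 0.360. Mki67, the gene of the Ki-67 antigen, was at 146, 143, 76.8, 93.9 and 22.0 CPM in KP and at 109, 108, 178, 141 and 171 CPM in KPG1, so KP 1 and KP 2 were above 3 of the KPG1 tumors, and its log2 fold change was 0.79 ± 0.45 (SE, adjusted p 0.527).

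**Figure D3:**
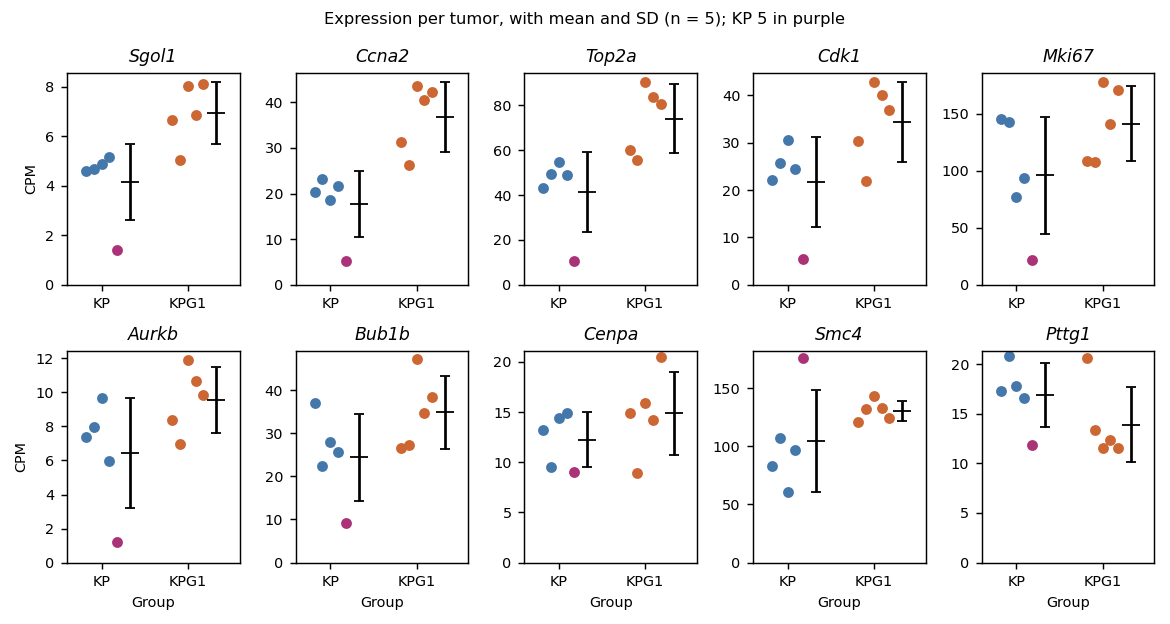
CPM of 10 members in each tumor (linear axes from 0), with 1 point per tumor (KP 1 to 4 blue, KP 5 purple, KPG1 orange) and the mean ± SD (n = 5) as black bars. KP 5 is the lowest point of Sgol1, Ccna2, Top2a, Cdk1, Mki67, Aurkb and Bub1b and the highest point of Smc4, at 176 CPM.

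Counted over the set, the groups did not overlap for 4 of 50 genes with KPG1 higher, namely Sgol2, Ccna2, Top2a and Ncapg, and for 0 with KPG1 lower. Over all genes the shares were 1.05% and 1.76%. Without KP 5 there were 5 such genes, the same 4 and Smc4, beside 3.64% of all genes, and 0 with KPG1 lower, beside 4.24%. Smc4, the other condensin ATPase and the most abundant member per length at 22.6 RPKM (CPM divided by the exon length in kilobases), was not in the rule for genes shown tumor by tumor and was picked after its values were seen. It was at 82.7, 107, 60.4, 97.0 and 176 CPM in KP and at 121, 132, 143, 133 and 124 CPM in KPG1. KP 5 was above every other tumor, and the log2 fold change was 0.41 ± 0.23 (SE, adjusted p 0.522) with it and 0.61 ± 0.16 (adjusted p 0.0850) without it.

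**Figure D4:**
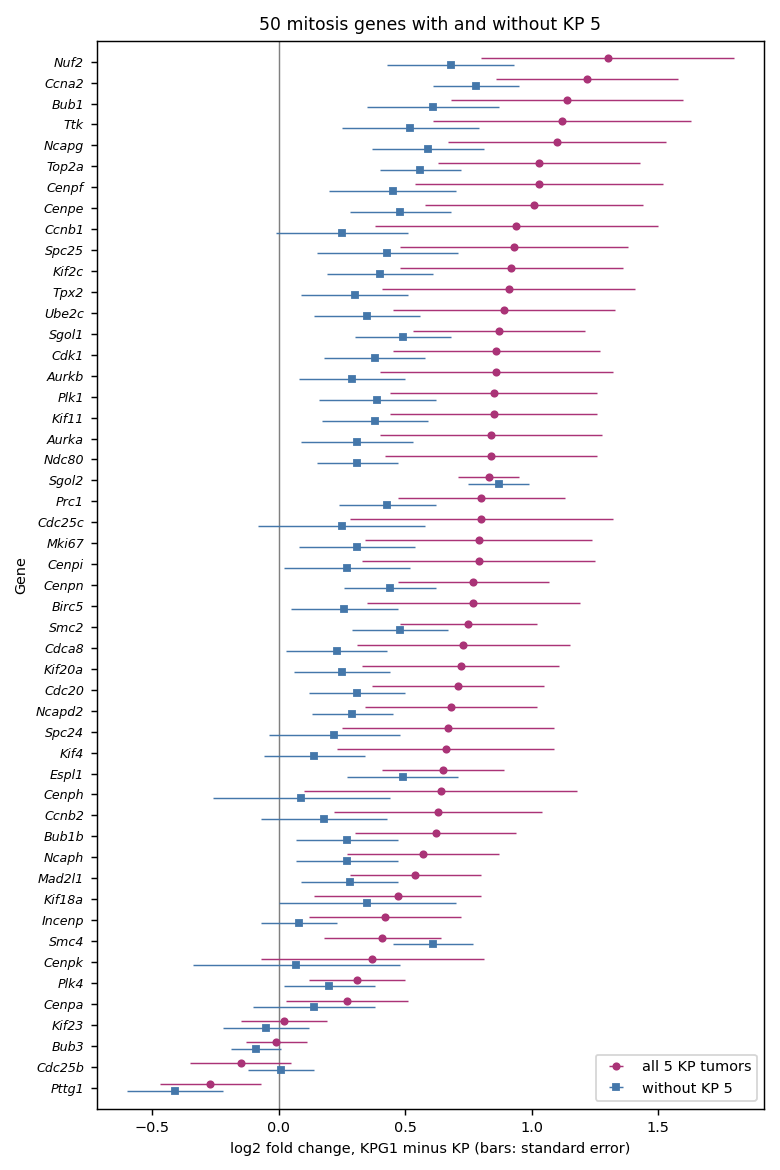
Log2 fold change (KPG1 minus KP) of the 50 genes with all 5 KP tumors (purple circles) and without KP 5 (blue squares), with the standard error as bars. The median moves from 0.78 to 0.31 and most bars shorten, while Sgol2 stays in place at 0.83 and 0.87 and Smc4 moves up from 0.41 to 0.61.

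KP 5 itself was compared with the other control tumors gene by gene, as a description of a single tumor. It lay at least 2-fold below the mean log2 level of KP 1 to KP 4 for 40 of the 50 members, beside 14.3% of all genes, and at least 4-fold below for 29, beside 4.31%. It was below all of KP 1 to KP 4 for 46 members, beside 30.7%, and above all of them for 3, beside 30.8%. The median distance was -2.15 on the log2 scale for the members and 0.00 for all genes. Ccnb1 was lowest at -3.15, followed by Nuf2 at -2.81 and Tpx2, the activator of Aurora A, at -2.80. The 3 members above the other controls were Sgol2 at 0.22, Cdc25b at 0.90 and Smc4 at 1.05. Cdc25b, a phosphatase that activates Cdk1 and the second most abundant member per length at 21.8 RPKM, was at 138 CPM in KP 5 and at 61.1 to 91.2 CPM in the other controls, and it was singled out after its values were seen. Members close to the other controls were Kif23 at -0.29, Bub3 at -0.36, Plk4 at -0.43, Cenpa and Kif18a at -0.50, Pttg1 at -0.59 and Espl1 at -0.66. KP 5 had the most counts of the 10 libraries and the lowest TMM factor, 0.88. The endothelial marker list was low in the same tumor, with 9 of 10 genes at least 2-fold below KP 1 to KP 4, beside 14.3% of all genes. Its median distance was -1.11. The mean log2 CPM of this list was 4.91 in KP 5, 5.61 to 6.54 in KP 1 to KP 4 and 5.46 to 6.97 in KPG1. Median distances were also below 0 for club (-0.89), leukocyte (-0.77) and fibroblast (-0.66) markers. They were 0.04 for erythroid, 0.05 for mesothelial, 0.27 for ciliated, 0.65 for alveolar type 1 and 0.85 for alveolar type 2 markers. The part of these cell types in the low values was not tested. No alveolar type 2 marker was 2-fold below.

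Promoter sequences were read for the members because so many moved together between tumors. Many late cell cycle genes carry a cell cycle genes homology region, or CHR, that is bound by the MuvB complexes, and CCAAT boxes bound by NF-Y. In RefSeq windows from 250 bases before to 50 bases after the annotated start (GRCm38.p6, 42 of the 50 genes matched), a CHR, searched on either strand with the letters TTTGAA and, as a variant, TTTAAA, was present in 30 of 42 genes (71.4%), beside 30.6% of all 27025 genes with a window. CCAAT on either strand was present in 33 genes (78.6%), beside 41.1%, and 26 genes held both (61.9%), beside 13.4%. An E2F site, searched with the letters TTTCCCG and, as variants on the same terms, TTTGGCG and in addition TTTCGCG, was present in 7 (16.7%), beside 6.38%. The 200 bases before the start are shown for 4 genes, Sgol2 as the member that passed the test and Mki67, Top2a and Cdk1 as members that were low in KP 5, with CHR and CCAAT matches on either strand in capitals.
Sgol2, chr1:57995774-57995973, plus strand: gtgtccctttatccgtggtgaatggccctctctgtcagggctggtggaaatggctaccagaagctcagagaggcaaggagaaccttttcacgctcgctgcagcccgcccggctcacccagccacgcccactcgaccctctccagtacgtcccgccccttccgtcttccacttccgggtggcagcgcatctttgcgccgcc
Mki67, chr7:135716380-135716579, minus strand: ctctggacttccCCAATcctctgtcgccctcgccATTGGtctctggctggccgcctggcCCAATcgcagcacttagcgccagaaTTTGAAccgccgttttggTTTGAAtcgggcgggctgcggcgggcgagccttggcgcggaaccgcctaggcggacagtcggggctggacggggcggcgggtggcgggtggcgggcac
Top2a, chr11:99024190-99024389, minus strand: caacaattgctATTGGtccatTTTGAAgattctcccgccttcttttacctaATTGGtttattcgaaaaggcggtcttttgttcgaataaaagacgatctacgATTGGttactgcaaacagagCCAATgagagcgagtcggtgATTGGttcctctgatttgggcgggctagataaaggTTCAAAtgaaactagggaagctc
Cdk1, chr10:69352913-69353112, minus strand: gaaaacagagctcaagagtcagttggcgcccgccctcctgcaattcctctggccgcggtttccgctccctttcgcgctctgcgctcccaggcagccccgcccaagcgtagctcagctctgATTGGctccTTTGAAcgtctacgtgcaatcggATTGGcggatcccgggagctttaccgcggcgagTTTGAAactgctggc

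The stretch before the Sgol2 start held 0 CHR and 0 CCAAT matches. Over the whole of its RefSeq windows no CHR was found, but each holds 1 CCAAT match, at -194 from the start in one and at 14 in the other, so Sgol2 is among the 33 genes with CCAAT. The stretches of Mki67, Top2a and Cdk1 held 2 CHR matches each and 3, 5 and 2 CCAAT matches. The median distance of KP 5 from the other controls was -2.21 on the log2 scale over the 30 genes with a CHR (range -3.15 to -0.29), -1.34 over the 12 without one (range -2.81 to 0.90) and -2.09 over the 8 with no window. The ranges overlapped widely: Nuf2 at -2.81 has no CHR in its window, and Kif23 at -0.29 has one. A match is a run of letters, not a measured site.

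**Figure D5:**
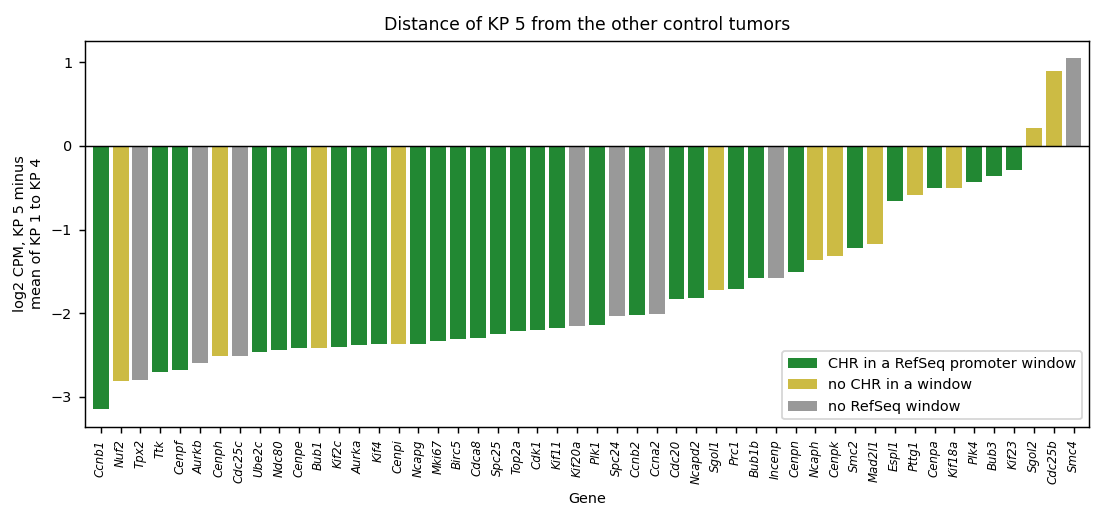
Log2 CPM of KP 5 minus the mean log2 CPM of KP 1 to KP 4 for each member, sorted, with bars green where a CHR is in a RefSeq promoter window, yellow where none is and grey where no window was matched. The bars run from -3.15 for Ccnb1 to 1.05 for Smc4, and green and yellow bars are mixed over most of that range.

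Genes outside the 50 were read from lists of the same pathways, and no gene of these lists passed an adjusted p of 0.05 in the comparison of all 10 tumors. The closest list, 61 other kinetochore and spindle genes, had 21 at an unadjusted p under 0.05 with KPG1 higher, beside 5.26% of all genes, and 0 with KPG1 lower, beside 6.31%, and a median log2 fold change of 0.57, or 0.28 without KP 5. The count of 21 was 10 without KPG1 3, 11 without KPG1 4, 11 without KPG1 5, 11 with the replicate block and 33 with the sample number as a covariate. Over all genes the counts in these fits were 591 of 16444, 607 of 16505, 860 of 16423, 677 of 16216 and 749 of 16216. The smallest p-values of the list were those of Cdca2, which recruits protein phosphatase 1 to chromatin, at 1.01 ± 0.22 (SE, limma adjusted p 0.109), and the kinesin gene Kif14 at 1.2 ± 0.37 (adjusted p 0.257). In this list KP 5 was at least 2-fold below the other controls for 38 of 61 genes, beside 14.3% of all genes. The shugoshins act on cohesin together with PP2A-B56, and both were read as lists. Of 13 genes of cohesin and its regulators, 2 had an unadjusted p under 0.05, both higher in KPG1, beside 5.26% of all genes. They were Esco2 and Pds5b at 0.73 ± 0.31 and 0.46 ± 0.19 (both adjusted p 0.389). The median of the 13 was 0.15, and KP 5 was 0.34 above the other controls at the median. Of 10 subunits and partners of PP2A-B56, 0 had an unadjusted p under 0.05 in either direction, beside 5.26% higher and 6.31% lower over all genes, with a median of 0.06.

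The 17 other subunits and inhibitors of the APC/C had 2 genes at an unadjusted p under 0.05, both higher in KPG1, among them its inhibitor Fbxo5 at 0.61 (limma adjusted p 0.322), and a median of 0.10. For this and the counts below, 5.26% of all genes were higher and 6.31% lower at an unadjusted p under 0.05. Of 23 genes of mitotic entry and its transcription, 4 were higher and 1 lower at an unadjusted p under 0.05. Wee1, the kinase that inhibits Cdk1, was at 80.9, 49.6, 35.4, 48.2 and 32.8 CPM in KP and at 22.2, 18.3, 24.2, 14.8 and 27.3 CPM in KPG1. The groups did not overlap, and its log2 fold change was -1.16 ± 0.26 (SE, adjusted p 0.116). Without KP 5, a tumor singled out from these data, its adjusted p was 0.0379. That fit called 1.35% of all genes lower at an adjusted p under 0.05, beside 0.111% with KP 5. Ccnf, which encodes cyclin F, was at 6.92, 7.54, 10.3, 6.63 and 3.08 CPM in KP and at 14.9, 12.7, 17.7, 15.9 and 11.2 CPM in KPG1, also without overlap, at 1.17 ± 0.28 (SE, adjusted p 0.144). Of 36 genes of DNA replication, 1 had an unadjusted p under 0.05, namely Rrm2, a subunit of ribonucleotide reductase, at 1.02 ± 0.26 (adjusted p 0.183). Their median was 0.13 with and -0.11 without KP 5, and KP 5 was at least 2-fold below the other controls for 19 of the 36, beside 14.3% of all genes. The 15 G1 cyclins and CDK inhibitors had 1 gene higher and 2 lower at an unadjusted p under 0.05, with Cdkn1a, the p21 inhibitor, at -0.90 ± 0.28 (SE, adjusted p 0.260). With 1 tumor left out at a time, the counts higher in KPG1 ran from 0 to 2 for cohesin, 0 to 1 for PP2A-B56, 1 to 3 for the APC/C, 2 to 6 for mitotic entry, 1 to 3 for DNA replication and 0 to 3 for the G1 genes, and no count lower in KPG1 was above 3. Over all genes, 591 of 16444 to 1402 of 16476 were higher at an unadjusted p under 0.05 in those fits.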

How the data were processed

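The authors sequenced polyA RNA with a stranded kit, trimmed reads with cutadapt, aligned them to mm10 with HISAT2 and counted them with featureCounts 1.4.4, per the labels; the strand setting and the annotation release are not given in the sources used here. Counts, as deposited, are raw reads per gene in whole numbers, and all 390170 values of the joint table were identical in the files per library. A log2 table from the authors was not used. Genes were filtered with filterByExpr, scaled by TMM (edgeR 4.0.16) and fitted by voom and limma 3.58.1 in R 4.3.3 with genotype as the only term, adjusted by Benjamini-Hochberg over 16216 genes, threshold 0.05. Log2 CPM used a prior count of 2. DESeq2 1.42.0, edgeR's quasi-likelihood test, other factors, filters, weights, a block, the sample number and leaving out each tumor were alternatives. Depth was 32427029 to 49534284 counts per library, and reads carried no molecular identifiers.

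Positions and exon lengths are from GENCODE M21 and promoters from RefSeq GRCm38.p6. Copies were taken as blastn matches of at least 300 bases at 95% identity. Values tumor by tumor are given for Slc2a1, Sgol1, Sgol2, members past the threshold, the 8 further members with the smallest p, those with the highest and lowest fold change and 1 gene per role; in other lists the 2 smallest p are named. The members and lists were chosen with earlier results of these data known.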

Additional observations from a re-analysis of the deposited data

Results flagged for a closer look

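KP 5 was singled out beforehand as low in proliferation genes, so its gaps below describe that choice and are no test of it. The gap of the extreme tumor to its nearest neighbor, as a share of the range of the group on the log2 CPM scale, was compared with the critical share of 0.71 for 5 tumors, which chance passes in about 1 of 20 groups whose extreme tumor was not chosen. Of 100 groups searched (50 members in 2 genotypes), 28 were past it as KP 5 on the low side and 2 in KPG1. The search was not run over all genes, so no share over all genes stands beside these counts. Many members moved together between tumors, so 1 of 20 does not set what to expect for them.

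Among the genes shown tumor by tumor, the gap share of KP 5 was 0.906 for Sgol1 and Ncapg, 0.854 for Ccna2 and Top2a, and 0.834 for Cenpn. For kinases and cyclins it was 0.814 for Cdk1, 0.802 for Ccnb1, 0.765 for Aurkb and 0.714 for Plk1, and for Nuf2 it was 0.808. The mean log2 CPM of the 50 members gave 0.85 for the same tumor. In KPG1, Pttg1 in KPG1 1 stood above the other 4 tumors with a gap share of 0.741.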

How the results depend on the processing

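Sgol2 was the 1 member past an adjusted p of 0.05 in the fits with RLE or upper-quartile factors, with edgeR, DESeq2 or a weight per library, with no filter on low counts and with a mean CPM of at least 20, where 20 members were tested. With the replicate number as a block the count was 0, with an adjusted p for Sgol2 of 0.176, and with the sample number as a covariate (6 to 16 in KP, 1 to 10 in KPG1) it was 0, with an adjusted p of 0.256. Leaving out 1 tumor at a time gave 0 to 1 members higher and 0 lower at an adjusted p under 0.05, 5 to 22 higher and 0 to 1 lower at an unadjusted p, and medians of 0.31 to 0.90, beside medians of 0.49 with a weight per library and 1.22 with the sample number. Over all genes, those fits called from 591 of 16444 (without KPG1 3) to 1402 of 16476 (without KP 5) higher at an unadjusted p under 0.05. Members higher at an unadjusted p under 0.05 were 5 with a mean CPM of at least 20 and 40 with the sample number as a covariate, and members lower were 1 with a weight per library and 1 with that covariate, where Pttg1 also turned to 0.02. Over all genes, 436 of 8237 were higher with that CPM minimum and 749 of 16216 with the covariate. The sample number runs partly with genotype, and the causes were not tested. Slc2a1 passed with DESeq2 (-1.04, adjusted p 0.00026), with a weight per library (-1.13, 0.0171) and without KP 5 (-1.14, 0.022), and its log2 fold change ran from -1.14 to -0.92 when 1 tumor was left out. Of the 17 members named by the rule, Sgol2 lost its call in 10 alternatives and Pttg1 changed direction in 1, and the others were past the threshold in none. Smc4, chosen later, is not among the 17. Of the counts for the other lists, 202 stayed within 1.5 times and 64 moved further. No pairing by the shared replicate numbers was seen. Deviations of tumors with the same number correlated at -0.122, 0.076, 0.0573, 0.0635 and -0.161, and 1 of 5 numbers was its own best partner. With 5 tumors per group these correlations cannot exclude a pairing. The median SE of a member's log2 fold change was 0.41 with KP 5 and 0.205 without it. Differences of that size were not detectable for most members, and much larger fitted ones did not pass either. Examples with KP 5 are Nuf2 at 1.30 ± 0.50 (limma adjusted p 0.359) and Ccna2 at 1.22 ± 0.36 (0.238).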

Other observations

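Lists of cell types that the CD45-negative fraction could hold were read in the same tumors, and none of their genes passed an adjusted p of 0.05 (limma). For the counts below, 5.26% of all genes were higher and 6.31% lower at an unadjusted p under 0.05. The lists are short, and a difference from these shares was not tested. Of 13 tested leukocyte markers, 2 had an unadjusted p under 0.05, both with KPG1 lower, with mean log2 CPM of the list at 1.30 to 2.31 in KP and 1.16 to 1.93 in KPG1, and with Cd3e and Nkg7 at 0 in 1 KPG1 library each. Of 10 endothelial markers, all were fitted higher, beside 52.7% of all genes, and 0 had an unadjusted p under 0.05. Alveolar type 1 markers had 0 of 8 under 0.05 and a median log2 fold change of 0.30, club cell markers 1 of 6 higher and a median of 0.04, and ciliated cell markers 2 of 6 lower and a median of -0.22. Fibroblast markers had 1 of 9 higher with a median of 0.44, mesothelial markers 1 of 3 lower with a median of -1.03, and erythroid markers 0 of 5 with a median of 0.13.

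Per length, the members spanned 0.513 RPKM for Cenpk, an inner kinetochore gene, to 22.6 RPKM for Smc4, as means over the 10 tumors. After Smc4 and Cdc25b came Mki67 at 11.8, Kif23 at 11.5 and Cdc20 at 11.1 RPKM, and Cdc25c and Cenpi were near the low end at 0.612 and 0.678 RPKM. Several members other than Sgol2 share exon bases with a gene on the opposite strand, among them Kif20a with Cdc23 over 29.3% of its exon bases, Ube2c with Tnnc2 over 22.8%, Kif4 with Pdzd11 over 15.1% and Ccna2 with Exosc9 over 12.5%, and how reads there were assigned is not known.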
